A study of Mus musculus with 9 samples.

Results

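The BCL2 family genes examined here were Mcl1, Bcl2 and Bcl2l1, which protect cells, Bax and Bak1, which execute cell death, and Bcl2l11, Bid, Bad, Pmaip1 and Bbc3, which trigger it. They were found as every probe, controls left out, that carried 1 of these 10 gene names in the scanner files, which gave 14 probes for 10 of the 34797 gene names among the 55681 probes of the array. Mcl1, Bcl2l1, Bcl2l11 and Bad had 2 probes each and the other genes 1. All 14 probes passed the scanner's flag for signal well above background on all 9 arrays, and none was removed by a filter. The share with this flag over the whole array was 90.7% on tumor skin 1 and 94.3% on tumor 1. It was higher still on papilloma skin 1, so on these arrays, described below, the flag says little about expression. On the other arrays the share ran from 43.5% to 63.5%.

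BCL2 family proteins decide whether the outer mitochondrial membrane stays intact. BAX and BAK1 form pores in it and release cytochrome c, MCL1, BCL2 and BCL-XL (the product of Bcl2l1) hold them in check, and the BH3-only proteins BIM (Bcl2l11), BID, BAD, NOXA (Pmaip1) and PUMA (Bbc3) either block the protectors or activate the pore formers. Neutrophils are short-lived cells that rely strongly on the labile protein MCL1, and BIM is a main trigger of their spontaneous death.

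Neutrophils were sorted as Gr-1bright cells from 4 sites of female FVB/N mice. All mice received DMBA, a carcinogen, when they were 6 and 13 weeks old. PMA, a tumor promoter, was given repeatedly from week 1 until week 18 to 20, a count that the labels do not tie to age. Papilloma skin (2 arrays) was the skin next to papillomas, which are benign precancerous lesions, tumor skin (2 arrays) was the skin next to established squamous cell carcinomas, and papilloma (3 arrays) and tumor (2 arrays) were the lesions themselves. There was no untreated skin, so both skin groups had the same carcinogen and promoter as the lesions. The RNA on an array was a pool over several mice, hybridized in 1 color to an Agilent mouse array, and lesions and skin were dissociated with different enzyme mixes.

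The probes of the genes whose result passed the test below are shown first, to make clear which transcript stretch each value reports. Bcl2l1 probe 1 (A_52_P510877, chr2:152655185-152655244 of mm9, minus strand, RefSeq transcript NM_009743 in the array design) and probe 2 (A_55_P1974877, chr2:152606404-152606463) lie 48781 bases apart. Bcl2l11 probe 1 (A_51_P484880, NM_207680, plus strand) covers 60 transcript bases that span chr2:127972893-127983988 of mm9, so it crosses a splice junction. Its capitals mark the adjacent glycine and aspartate codons of the BH3 motif, the element by which BIM binds its partners. No part of the Bcl2l1 probe is marked.

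Bcl2l1 probe 1: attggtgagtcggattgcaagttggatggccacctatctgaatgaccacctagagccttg
Bcl2l11 probe 1: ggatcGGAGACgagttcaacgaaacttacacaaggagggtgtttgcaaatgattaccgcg

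Bcl2l11 probe 2 (A_52_P348214, designed on ENSMUST00000129206) lies 18157 bases upstream of probe 1. Bax (A_55_P2137406, chr7:52717122-52717181) and Bid (A_52_P574653, chr6:120843464-120843523) have 1 probe each, both on the minus strand of mm9. No annotation of that build was used here, so exon and UTR positions are not given.

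Values are log2 levels from the table of 1 value per probe and array that the authors deposited, whose 9 columns had medians between 6.08 and 6.12. Levels and orders of groups are those of this table unless the scanner signals are named. The scanner signal was compressed in papilloma skin 1, in tumor skin 1 and in tumor 1, where spike-in slopes were 0.678, 0.876 and 0.894 against 1.04 to 1.06 on the other 6. The columns papilloma skin 1 and tumor 1 ranked the probes closest to the scanner file of tumor 2 (Spearman's rho 0.923 and 0.946), not to their own (0.587 and 0.825), and papilloma 2 and papilloma 3 were likewise nearer to the file of the other (0.981 and 0.958). Each result that passed is therefore also given from the 7 columns without papilloma skin 1 and tumor 1. These hold only 1 array of papilloma skin and 1 of tumor, so the text gives the size of the change alone. Columns of 1 group correlated at r = 0.976 to 0.991 and no 2 were identical. The methods call the replicates biological, and their small number limits the precision of every value.

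Lesion was compared with skin at the tumor stage (tumor versus tumor skin) and at the papilloma stage (papilloma versus papilloma skin). Bcl2l1 was higher in neutrophils of both kinds of lesion than in neutrophils of the skin beside them. Both Bcl2l1 probes rose, by 3.02-fold and 2.93-fold at the tumor stage and by 3.73-fold and 4.46-fold at the papilloma stage. Bcl2l11 rose 2.95-fold at 1 of its 2 probes at the papilloma stage. At the tumor stage Bax rose 2.39-fold and Bid fell 2.42-fold. No member passed the test between tumor and papilloma or between the skin groups.

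**Figure D1:**
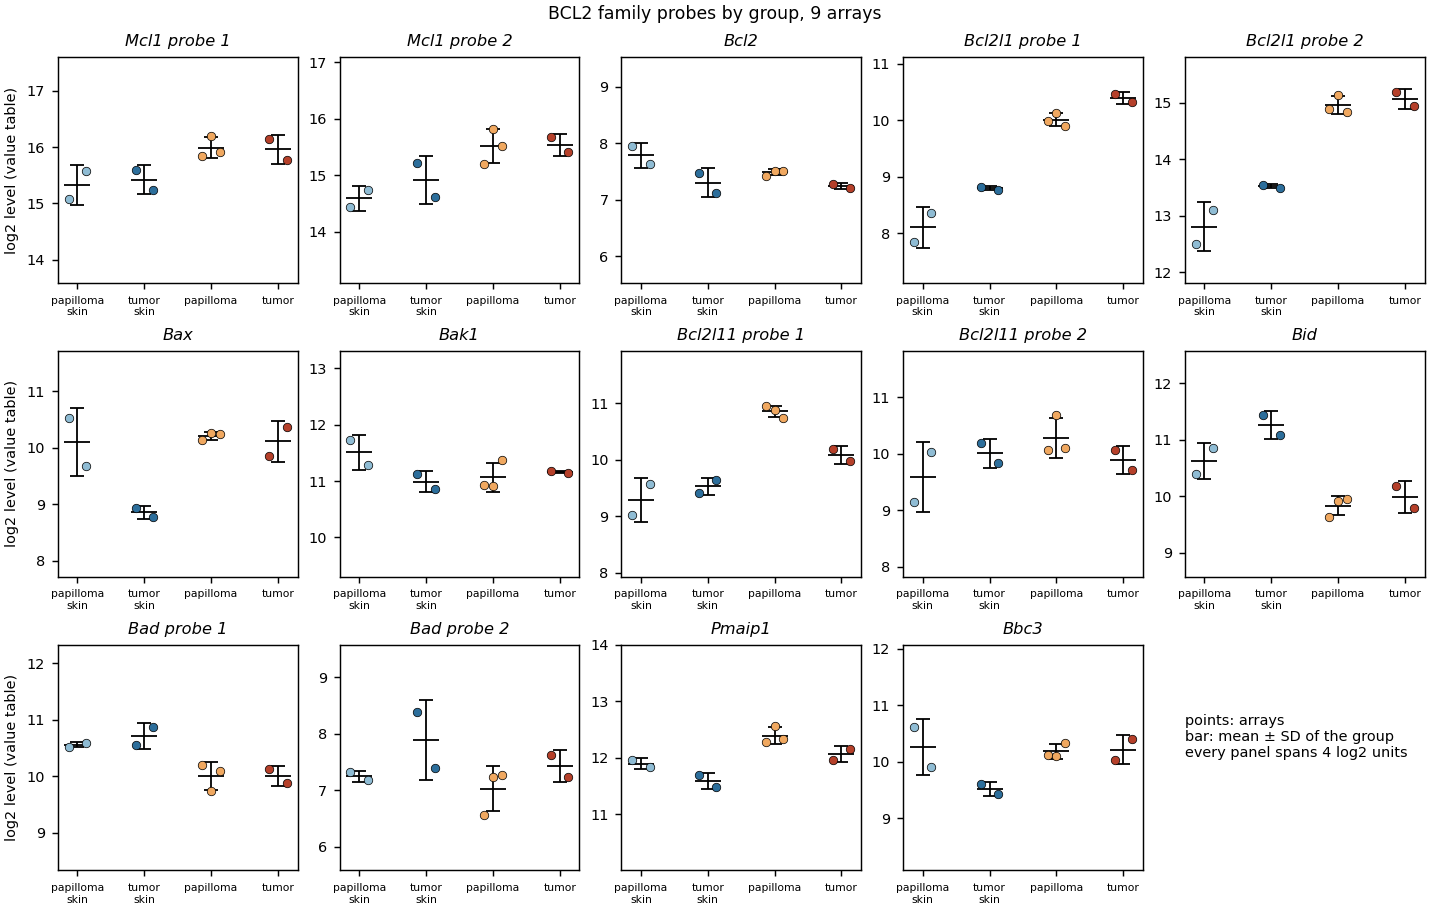
Log2 level of each of the 14 BCL2 family probes (y axis, every panel spanning 4 log2 units) in the 4 groups (x axis), with points for arrays and bars for mean ± SD. For both Bcl2l1 probes every lesion array lies above every skin array, and for Bax the tumor skin values of the table lie below all others.

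A probe passed where limma, fitted to all 55681 probes and 9 columns with 4 group means, gave a p of at most 0.05 after Benjamini-Hochberg adjustment. At the tumor stage 4 of the 14 probes passed, 3 higher and 1 lower in tumor, against a background of 9.74% of all probes (5.78% higher and 3.96% lower). At the papilloma stage 3 of 14 passed, all higher in papilloma, against 6.35% of all probes (4.15% higher). All 7 of these differences also met the study's further limits of 1 for the size of the log2 change and 6 for the mean level, which 4.21% of all probes met at the tumor stage and 3.18% at the papilloma stage. The median log2 fold change of the 14 probes was 0.50 at the tumor stage and 0.30 at the papilloma stage, beside -0.02 and -0.01 over all probes. Arrays of tumor and tumor skin did not overlap for 9 probes that were higher and 2 that were lower in tumor, where 52.1% of all probes did not overlap (25.7% higher and 26.4% lower). For papilloma and papilloma skin the counts were 7 and 3, with 37.6% over all probes (19.8% and 17.8%).

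Among the anti-apoptotic genes, Bcl2l1 probe 1 stood at 7.85 and 8.36 in papilloma skin, 8.82 and 8.77 in tumor skin, 9.98, 10.13 and 9.90 in papilloma, and 10.46 and 10.31 in tumor. Probe 2 gave 12.50 and 13.11 in papilloma skin, 13.55 and 13.50 in tumor skin, 14.89, 15.15 and 14.84 in papilloma, and 15.20 and 14.95 in tumor. Both probes thus ordered the groups as tumor, papilloma, tumor skin and papilloma skin, with a gap between all lesion and all skin arrays. Tumor and papilloma overlapped for probe 2 and did not for probe 1.

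The log2 fold change of Bcl2l1 at the tumor stage was 1.59 (SE 0.19, limma adjusted p = 0.00352) for probe 1 and 1.55 (SE 0.22, limma adjusted p = 0.00652) for probe 2. At the papilloma stage it was 1.90 (SE 0.17, limma adjusted p = 0.000863) and 2.16 (SE 0.20, limma adjusted p = 0.000972). Both probes passed in both comparisons whichever of the 9 arrays was left out. With the 7 columns the changes were 1.52 and 1.42 at the tumor stage and 1.65 and 1.85 at the papilloma stage. Within slide 1, which held the first array of every group, tumor minus tumor skin was 1.64 for probe 1 and 1.65 for probe 2. Papilloma minus papilloma skin was 2.13 and 2.40 within slide 1 and 1.77 and 2.04 within slide 2.

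Mcl1, the protector that neutrophils depend on most, had higher values in lesions but did not pass. Mcl1 probe 1 read 15.07 and 15.57 in papilloma skin, 15.60 and 15.24 in tumor skin, 15.85, 16.20 and 15.91 in papilloma, and 16.14 and 15.78 in tumor. For this probe the lesion arrays of the table lay above all skin arrays. In the quantile normalized scanner signals tumor 1 (15.69) lay below papilloma skin 2 (15.71). Probe 2 read 14.44 and 14.75 in papilloma skin, 15.21 and 14.62 in tumor skin, 15.21, 15.81 and 15.52 in papilloma, and 15.68 and 15.41 in tumor. Here tumor skin 1 met the lowest papilloma array. The log2 differences were 0.54 and 0.63 for tumor minus tumor skin (limma adjusted p = 0.186 and 0.171) and 0.66 and 0.92 for papilloma minus papilloma skin (limma adjusted p = 0.121 and 0.0637). The 95% intervals reached up to 1.08 and 1.23 at the tumor stage and up to 1.16 and 1.47 at the papilloma stage. Within slide 1 tumor minus tumor skin was 0.54 and 0.47 in the table and 0.04 and 0.11 in the quantile normalized scanner signals.

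Bcl2, the founding protector, read 7.94 and 7.63 in papilloma skin, 7.48 and 7.12 in tumor skin, 7.42, 7.51 and 7.52 in papilloma, and 7.27 and 7.20 in tumor. The tumor arrays lay within the range of the tumor skin arrays, and the papilloma arrays lay below both papilloma skin arrays. The difference was -0.06 for tumor minus tumor skin (95% interval -0.46 to 0.34, limma adjusted p = 0.863) and -0.30 for papilloma minus papilloma skin (95% interval -0.66 to 0.06, limma adjusted p = 0.336).

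**Figure D2:**
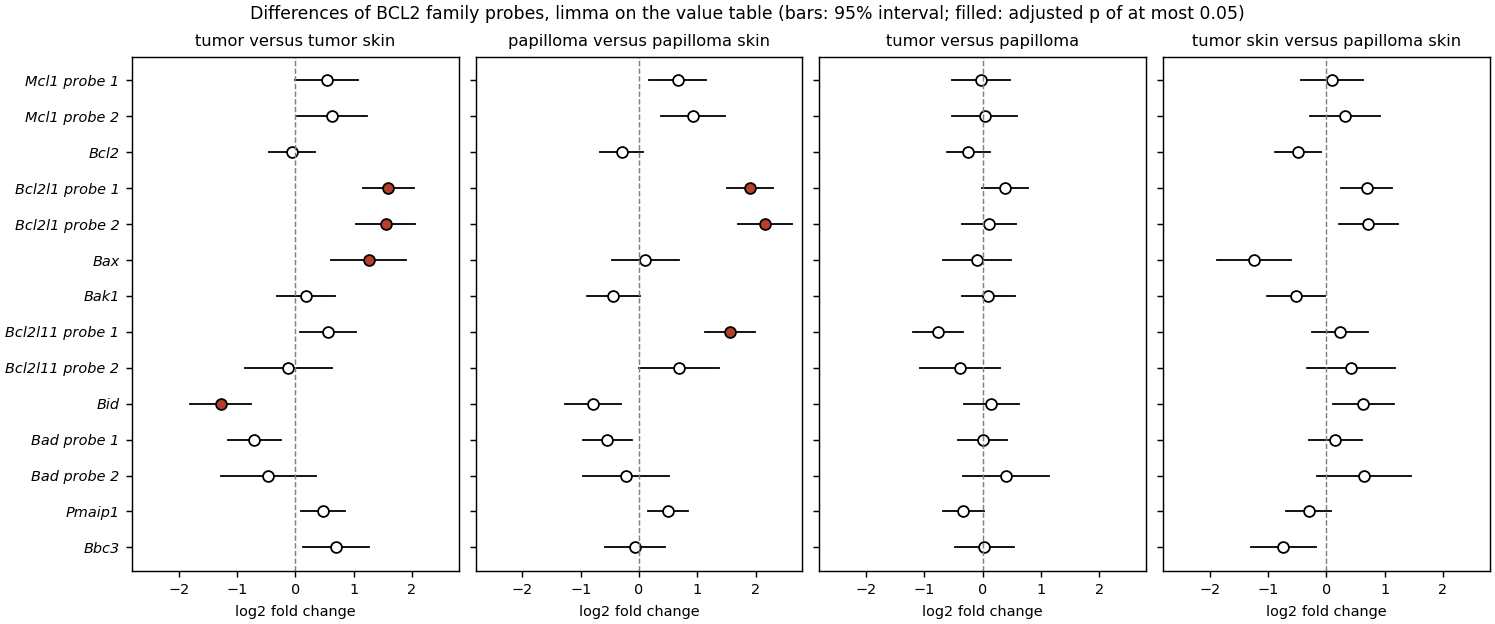
Log2 fold change of the 14 probes (x axis) in 4 comparisons, with points for the limma estimate and bars for its 95% interval; filled points have an adjusted p of at most 0.05. There are 4 filled points for tumor versus tumor skin and 3 for papilloma versus papilloma skin, and the other 2 comparisons have none.

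Of the pore-forming effectors, Bax read 10.52 and 9.68 in papilloma skin, 8.94 and 8.77 in tumor skin, 10.13, 10.26 and 10.23 in papilloma, and 9.86 and 10.36 in tumor. In this table tumor skin was the low group, and papilloma skin, papilloma and tumor overlapped, with means of 10.10, 10.21 and 10.11. The log2 fold change was 1.26 (SE 0.28, limma adjusted p = 0.0296) at the tumor stage and 0.11 (limma adjusted p = 0.859) at the papilloma stage. The first effect minus the second was 1.15 (limma adjusted p = 0.242) and did not pass. Tumor skin minus papilloma skin was -1.24 (limma adjusted p = 0.0757). The rise in tumor did not pass without papilloma 3 (limma adjusted p = 0.0579). Nor did it pass without tumor skin 1, tumor skin 2, tumor 1 or tumor 2, each of which left 1 array in its group. The rise was 1.51 with the 7 columns. Within slide 1 tumor minus tumor skin was 0.92 in the table and 1.13 in the quantile normalized scanner signals. Papilloma minus papilloma skin was -0.39 within slide 1 and 0.58 within slide 2.

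The separation of the skin groups for Bax depended on the source of the values. The quantile normalized scanner signals gave 8.91 and 9.61 in papilloma skin and 9.14 and 9.16 in tumor skin. There the tumor skin values lay between the papilloma skin values and did not form a separate low group. The papilloma stage difference in these signals was 1.35 within slide 1 and 0.58 within slide 2, and it ran from 0.79 to 1.48 over the 6 scanner fits, beside 0.11 in the value table.

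Bak1, the other effector, read 11.72 and 11.29 in papilloma skin, 11.12 and 10.86 in tumor skin, 10.93, 10.91 and 11.36 in papilloma, and 11.17 and 11.15 in tumor. The difference was 0.18 for tumor minus tumor skin (95% interval -0.32 to 0.67, limma adjusted p = 0.654) and -0.44 for papilloma minus papilloma skin (95% interval -0.89 to 0.01, limma adjusted p = 0.256). Papilloma skin 1 held the highest Bak1 value in the table and the lowest, 10.17, in the quantile normalized scanner signals. Papilloma minus papilloma skin was 0.50 within slide 1 and 0.19 within slide 2 in these signals, against -0.80 and -0.38 in the table.

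Among the BH3-only genes, Bcl2l11 probe 1, which holds the BH3 codons shown above, read 9.01 and 9.57 in papilloma skin, 9.42 and 9.63 in tumor skin, 10.95, 10.87 and 10.74 in papilloma, and 10.20 and 9.97 in tumor. Papilloma was the highest group, tumor lay between it and both skin groups, and the arrays of these 3 levels did not overlap. The log2 fold change was 1.56 (SE 0.19, limma adjusted p = 0.00309) at the papilloma stage and 0.56 (limma adjusted p = 0.127) at the tumor stage. The tumor effect minus the papilloma effect was -1.0 (SE 0.28, limma adjusted p = 0.198), and tumor minus papilloma was -0.77 (limma adjusted p = 0.141), neither of which passed. The papilloma effect ran from 1.29 to 1.84 when each array was left out in turn, and was 1.29 with the 7 columns. It was 1.93 within slide 1 and 1.30 within slide 2 in the table, and 1.23 and 1.01 in the quantile normalized scanner signals.

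Bcl2l11 probe 2 did not show the same separation. It read 9.14 and 10.03 in papilloma skin, 10.19 and 9.83 in tumor skin, 10.06, 10.68 and 10.09 in papilloma, and 10.06 and 9.72 in tumor. Papilloma minus papilloma skin was 0.69 (95% interval 0.00 to 1.38, limma adjusted p = 0.239) and tumor minus tumor skin -0.12 (limma adjusted p = 0.854). The result for Bcl2l11 therefore rests on 1 of its probes, and whether the 2 report different transcripts was not tested.

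Bid, which links death receptors to mitochondria, read 10.40 and 10.85 in papilloma skin, 11.44 and 11.08 in tumor skin, 9.64, 9.92 and 9.94 in papilloma, and 10.18 and 9.78 in tumor. In the table all lesion arrays lay below all skin arrays, while in the quantile normalized scanner signals papilloma skin 1 was lowest, at 8.80. At the tumor stage Bid fell by 1.28 (SE 0.23, limma adjusted p = 0.014), and the difference for papilloma minus papilloma skin was -0.79 (SE 0.21, limma adjusted p = 0.0653). The fall in tumor did not pass without tumor skin 1 (limma adjusted p = 0.062) or without tumor 2 (limma adjusted p = 0.105). Over the 6 scanner fits the papilloma stage difference ran from -1.28 to 0.16, and after ComBat it was 0.00097 in place of -0.79. With the 7 columns the tumor stage difference was -1.48. Within slide 1 it was -1.26 in the table and -1.30 in the quantile normalized scanner signals.

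The other BH3-only genes did not pass in either comparison of lesion with skin. Pmaip1, which antagonizes MCL1, read 11.96 and 11.83 in papilloma skin, 11.69 and 11.48 in tumor skin, 12.28, 12.57 and 12.32 in papilloma, and 11.96 and 12.16 in tumor, so the lesion arrays lay above those of their own skin. Its differences were 0.47 for tumor minus tumor skin (limma adjusted p = 0.111) and 0.50 for papilloma minus papilloma skin (limma adjusted p = 0.102). Over the 6 scanner fits Pmaip1 gave -0.08 to 0.64 at the tumor stage and 0.59 to 2.01 at the papilloma stage. Within slide 1 its tumor minus tumor skin difference was 0.27 in the table and -0.32 in the scanner signals. Bbc3, a p53 target, read 10.61 and 9.91 in papilloma skin, 9.61 and 9.44 in tumor skin, 10.13, 10.10 and 10.34 in papilloma, and 10.03 and 10.40 in tumor. Its differences were 0.70 for tumor minus tumor skin (limma adjusted p = 0.111) and -0.07 for papilloma minus papilloma skin (limma adjusted p = 0.896). Tumor skin held its lowest values in the table, while in the quantile normalized scanner signals papilloma skin 1 was lowest, at 8.93 beside 9.74 and 9.40 in tumor skin. For papilloma minus papilloma skin the 6 scanner fits gave 0.47 to 1.18 for Bbc3, and within slide 1 it was -0.48 in the table and 1.16 in the scanner signals.

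Bad, whose product is held inactive by survival kinases, read lower in lesions at probe 1, with 10.52 and 10.59 in papilloma skin, 10.55 and 10.87 in tumor skin, 10.20, 9.73 and 10.10 in papilloma, and 10.13 and 9.88 in tumor. In the table all lesion arrays lay below all skin arrays for this probe, and the differences of -0.70 at the tumor stage (limma adjusted p = 0.0636) and -0.55 at the papilloma stage (limma adjusted p = 0.134) did not pass. In the quantile normalized scanner signals papilloma skin 1 read 9.61, below every lesion array. There papilloma minus papilloma skin was 0.95 within slide 1 and -0.49 within slide 2, against -0.32 and -0.86 in the table. At probe 2 lesion and skin overlapped, with values of 6.57 to 7.62 in lesions and 7.17 to 8.39 in skin.

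By role, 2 of 5 anti-apoptotic probes passed higher in each comparison of lesion with skin, both of Bcl2l1. Of the 2 effector probes, 1 passed higher at the tumor stage and none at the papilloma stage. Of the 7 BH3-only probes, 1 passed lower at the tumor stage (Bid) and 1 passed higher at the papilloma stage (Bcl2l11 probe 1).

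In tumor versus papilloma 0 of 14 probes passed in limma (background 0.645%), and 1, Bcl2l11 probe 1, had an unadjusted limma p under 0.05, as had 14.4% of all probes. Between tumor skin and papilloma skin 0 of 14 passed (background 0.623%) and 7 had an unadjusted limma p under 0.05, as had 22.7% of all probes. Both Bcl2l1 probes were among these, with tumor skin minus papilloma skin of 0.69 and 0.72 (limma adjusted p = 0.105 and 0.126). For the tumor stage effect minus the papilloma stage effect 0 of 14 passed (background 0.0323%), and 3 probes, of Bcl2l11, Bax and Bbc3, had an unadjusted limma p under 0.05, as had 14.7% of all probes. The difference for Bcl2l1 was -0.31 (95% interval -0.90 to 0.28) at probe 1 and -0.61 (95% interval -1.29 to 0.08) at probe 2.

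The directions of the differences that passed did not depend on the source of the values, while the calls did. With the slide as a term on the value table, the 3 papilloma stage calls held and the 4 tumor stage calls did not (limma adjusted p = 0.0759 and 0.0909 for Bcl2l1, 0.179 for Bax and 0.121 for Bid). In that fit 1.92% of all probes passed at the papilloma stage and 0.381% at the tumor stage. From the scanner signals, normalized without the authors' table, Bcl2l1 probe 1 changed on the log2 scale by 1.20 to 1.85 across the fits at the tumor stage and by 1.60 to 2.09 at the papilloma stage. The ranges for Bcl2l1 probe 2 were 1.09 to 1.43 and 1.53 to 3.20. For both probes the highest tumor stage and the lowest papilloma stage value came from the fit on the 6 uncompressed arrays. That fit held 1 array each of tumor, tumor skin and papilloma skin. At the tumor stage none of the 14 probes passed in limma in any of the 6 scanner fits, and 0 to 6 had an unadjusted limma p under 0.05, where 1.68% to 15.6% of all probes had. At the papilloma stage probes of members passed, among these fits, only after the slide effect was removed with ComBat, where 15.3% of all probes passed, and they were the 3 probes already named together with Bax (1.03, limma adjusted p = 0.0396) and Pmaip1 (1.25, limma adjusted p = 0.0403). The other 5 scanner fits called none of the 14 in this comparison, with 2 to 8 at an unadjusted limma p under 0.05, where 9.01% to 13.1% of all probes had.

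**Figure D3:**
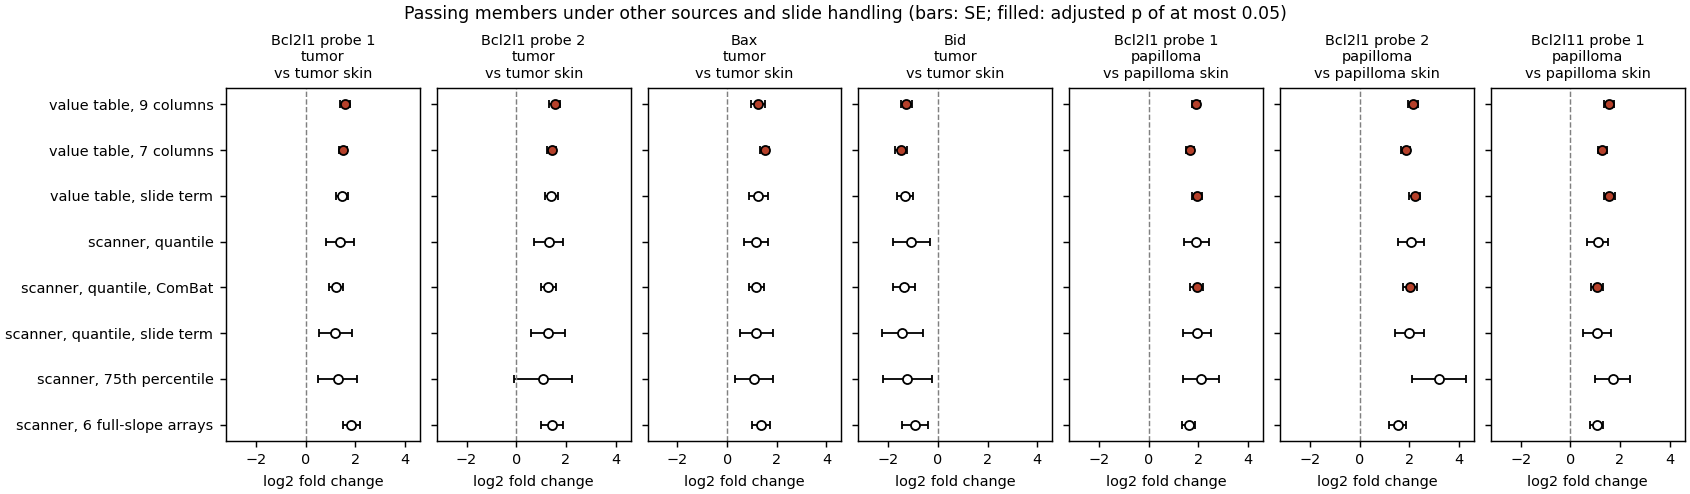
Log2 fold change of the 7 passing differences (x axis, one panel each) under 8 combinations of source and slide handling (y axis), with points for the limma estimate, bars for its SE, and filled points for an adjusted p of at most 0.05. Every estimate keeps the sign it has in the 9 columns of the value table, and most scanner estimates are open.

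The other genes of the death pathway were described from 6 lists with 62 genes, 60 of which were on the array with 94 probes. Of the 94 probes, 28 passed higher and 1 lower at the tumor stage, and 20 higher and 2 lower at the papilloma stage. Over all probes 5.78% passed higher and 3.96% lower at the tumor stage, and 4.15% higher at the papilloma stage, and the list counts below stand beside these shares. Their median log2 fold changes were 0.31 and 0.18. In tumor versus papilloma 1 probe passed, higher in tumor, and between tumor skin and papilloma skin 1 passed, lower in tumor skin.

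Other anti-apoptotic family genes had 5 probes for 4 genes, of which 2 rose in both comparisons. Bcl2a1c rose by 1.36 at the tumor stage (limma adjusted p = 0.00284) and by 0.88 at the papilloma stage (limma adjusted p = 0.00882), and Bcl2a1d by 1.11 (limma adjusted p = 0.00646) and 0.78 (limma adjusted p = 0.0177). A1, a short-lived protector of activated neutrophils, is a product of the Bcl2a1 family. Its genes are near-identical copies, so a probe cannot be assigned to 1 copy with certainty. Whether each copy, Bcl2a1c included, makes a working protein was not tested. Bcl2a1a and Bcl2a1b had no probe of that name. Bcl2a1c was also lower in tumor skin than in papilloma skin, by -1.02 (limma adjusted p = 0.0456).

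Of 18 probes for 10 other pro-apoptotic or BH3-only genes, 6 rose at the tumor stage and 8 at the papilloma stage. Most were of Bnip3 and Bnip3l, which encode mitochondrial proteins of hypoxia and mitophagy. The 3 Bnip3 probes rose by 2.56, 2.25 and 1.54 at the tumor stage (limma adjusted p of 0.0008, 0.000498 and 0.00248), and the first 2 of these changes exceeded that of every member at this stage. Bok, a BAX-like effector, rose by 1.59 at the papilloma stage (limma adjusted p = 0.0154).

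Of 23 apoptosome and caspase probes, 7 rose at the tumor stage, while 2 rose and 2 fell at the papilloma stage. Vdac1, a channel of the outer mitochondrial membrane, rose by 1.59 in tumor (limma adjusted p = 0.00232). Of 17 probes for caspase inhibitors, 6 and 3 rose. All 4 probes of Cflar, whose product blocks caspase 8, rose at the tumor stage, by 0.71 to 1.42, and 3 of the 4 rose at the papilloma stage. Xiap rose by 0.89 at the tumor stage (limma adjusted p = 0.0129) and differed by 0.20 at the papilloma stage.

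Of 12 probes for genes of MCL1 protein turnover, 2 rose at the tumor stage and none passed at the papilloma stage, where the shares over all probes were 9.74% and 6.35% in either direction. Of 19 probes for upstream regulators of BH3-only genes, 5 rose and 1 fell at the tumor stage, and 5 rose at the papilloma stage. Cdkn1a, which encodes the cell cycle inhibitor p21, rose by 2.15 at its more changed probe at the tumor stage (limma adjusted p = 0.00652) and by 1.91 and 1.86 at the papilloma stage (limma adjusted p = 0.00683 and 0.000261). Trib3, a pseudokinase of the stress response, rose by 1.87 at the tumor stage (limma adjusted p = 0.000498) and was the probe that passed in tumor versus papilloma, at 1.04 (limma adjusted p = 0.0114). Ddit3, which encodes the stress factor CHOP, rose by 1.52 at the papilloma stage (limma adjusted p = 0.027).

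**Figure D4:**
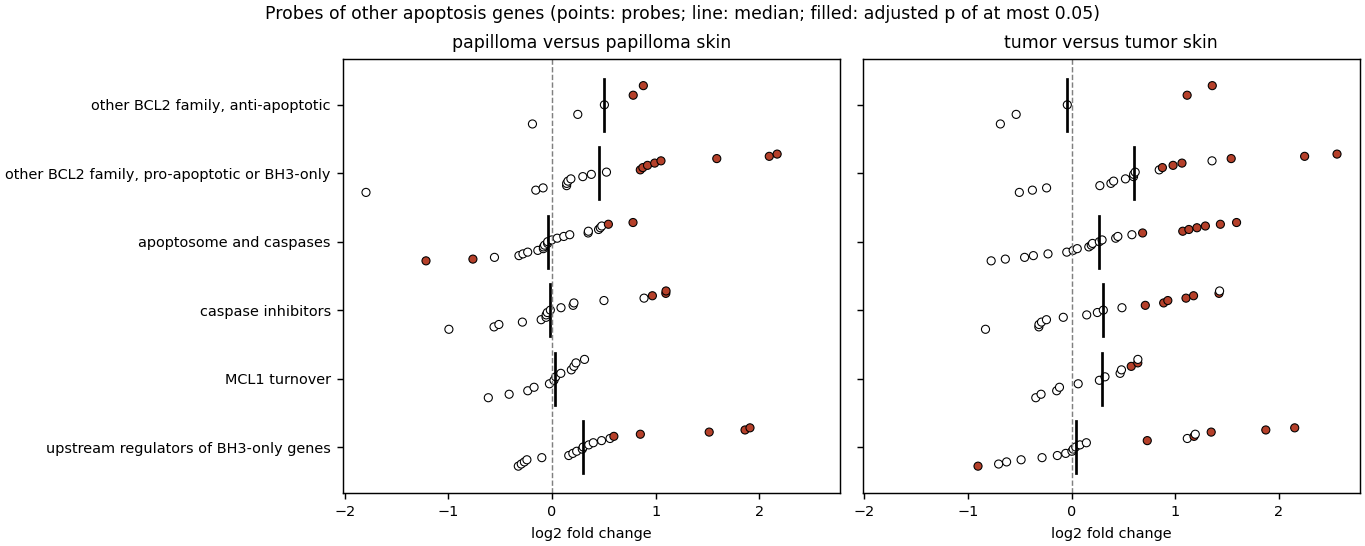
Log2 fold change (x axis, the same range in both panels) of the 94 probes of the 6 lists of other apoptosis genes (y axis), with points for probes, lines for list medians and filled points for an adjusted p of at most 0.05. In both comparisons most filled points lie to the right of 0.

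The genes whose values over the 9 columns, centred on the mean of the probe, lay closest to those of a member were sought among 17081 probes that had a symbol and averaged 6 or more. For Bcl2l1 probe 1 these were Upp1, Zfp292 and Ppp1r16b, with root mean square differences of 0.146, 0.162 and 0.172 on the log2 scale. For Bcl2l1 probe 2 they were Upp1, Ppp1r16b and Pfkfb3 (0.140, 0.178 and 0.188), and for Bcl2l11 probe 1 Rhob, Bhlhe40 and another probe of Ppp1r16b (0.147, 0.168 and 0.169). The range of the group means of these 3 members was 2.28, 2.27 and 1.56.

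Promoter windows of 300 bases (250 before and 50 after a transcription start, from RefSeq on GRCm38.p6) were found for 9 of the 10 members, and not for Pmaip1. The motifs TGANTCA (AP-1), TTCNNNGAA (STAT), TGACGTCA (CRE) and GTAAACA (FOXO) were searched on both strands, and are present in 7.81%, 8.3%, 1.79% and 3.65% of all 32851 windows. Among the 15 windows of the members, FOXO matched in 2, of Bcl2l11 and Bbc3, and the other motifs in none. The 250 bases before the most upstream Bcl2l11 start (chr2:128125788-128126037 of GRCm38.p6, plus strand) are shown because the Bcl2l11 probe 1 changed in papilloma, with the match at position -227 from the start in capitals.

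Bcl2l11 promoter: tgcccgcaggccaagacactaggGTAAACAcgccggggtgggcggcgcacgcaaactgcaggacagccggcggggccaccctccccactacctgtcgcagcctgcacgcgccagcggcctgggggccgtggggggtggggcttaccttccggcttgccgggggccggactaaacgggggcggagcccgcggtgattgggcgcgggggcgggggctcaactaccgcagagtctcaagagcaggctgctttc

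The match is a description of letters and no sign of binding. In bulk sorted cells a change in the level per cell cannot be told apart from a change in the share of cells that express a gene. Markers of other cells moved with the lesions. For the 10 keratinocyte genes on the array the summed log2 level was 13.4 to 13.8 in papilloma skin, 13.3 to 14.2 in tumor skin, 14.3 to 15.5 in papilloma and 14.7 to 16.2 in tumor, and 5 of 18 probes rose at the tumor stage and 4 at the papilloma stage. The 6 red blood cell genes read 16.0 to 16.8 in papilloma skin, 15.9 to 16.7 in tumor skin, 13.4 to 14.7 in papilloma and 18.6 to 19.1 in tumor. For the 6 B and plasma cell genes the range was 13.3 to 15.3 in skin and 8.7 to 9.7 in lesions. The 12 neutrophil genes read 20.0 to 20.3 in skin and 19.7 to 20.0 in lesions, and 7 of 13 neutrophil probes fell at the tumor stage and 6 at the papilloma stage. The summed level of the 9 eosinophil genes was 13.8 to 14.2 in papilloma skin, 13.3 in both tumor skin arrays, 12.0 to 12.4 in papilloma and 13.0 to 13.2 in tumor, and 2 of them, Epx and Prg3, were not above background. Of 10 eosinophil probes, 5 fell at each stage and 2 rose at the tumor stage. Of 8 probes for 6 endothelial genes, 1 rose at the tumor stage and 4 at the papilloma stage, with summed levels of 12.8 to 13.0 in papilloma skin, 13.15 to 14.01 in tumor skin, 12.7 to 13.5 in papilloma and 12.4 to 12.6 in tumor. For the monocyte, dendritic cell, T cell, mast cell and fibroblast lists 0 to 3 probes passed at each stage. Fibroblast genes summed to 15.1 to 15.6 in papilloma and 13.6 to 14.7 in papilloma skin. They read 13.0 to 13.1 in tumor skin and 12.4 to 13.9 in tumor. Dendritic cell genes summed to 15.19 to 15.53 in papilloma and 14.68 to 15.17 in papilloma skin. They read 14.31 to 14.88 in tumor skin and 14.04 to 14.23 in tumor. For T cell and mast cell genes the levels of papilloma overlapped with those of papilloma skin. Monocyte genes summed to 15.33 to 15.51 in papilloma, below 15.67 to 15.85 in papilloma skin. In tumor all of these lists lay below tumor skin. Monocyte genes read 15.25 to 15.42 in tumor and 15.43 to 15.51 in tumor skin. T cell genes read 12.89 to 12.94 and 13.37 to 13.56, and mast cell genes 10.86 to 10.91 and 11.28 to 11.57. The part of these cells in the values of the BCL2 family was not tested.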

How the data were processed

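Neutrophil RNA of 4 groups (2, 2, 3 and 2 arrays) was measured on 1-color Agilent arrays. Per the file headers, Feature Extraction 10.7.3.1 made the deposited scanner files, in which the processed signal is an intensity after background subtraction. The values used here are log2 levels from a table that the authors deposited. Quantile normalization and ComBat for the chip are described in their methods, and which of these steps the table holds is not stated. If the chip effect was removed, the degrees of freedom that this took are not counted by limma, and p-values are too small.

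The value table was tested with limma 3.58.1 in R 4.3.3, on 55681 probes with 4 group means and 5 residual degrees of freedom, and adjusted by Benjamini-Hochberg over all probes. The test was tried on simulated data. Members and lists were chosen with earlier results of these data known. Named are all members, the listed genes with the 6 largest passing changes per comparison and Bcl2a1a to Bcl2a1d, Xiap and Cflar (1 further gene is not reported here), and the 3 genes most like each of 3 members. Alternatives (13 planned, and leaving out each of 9 arrays) concern slide, replicate block, columns, source and scaling, background correction (normexp, offset 50), filters, genes as the unit, weights and spread. A fit on 6 arrays, with spike-in slopes not under 0.9, was chosen after seeing the data. ComBat was an own implementation. RefSeq names came from GRCm38.p6, and 1-colour arrays give no depth, so the number of arrays limits precision.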

Additional observations from a re-analysis of the deposited data

How the results depend on the processing

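In tumor versus tumor skin 4 member probes passed. The count was 0 with the slide as a term, 2 with the replicate block and 0 in each scanner fit. The share of all probes that passed also fell, from 9.74% to 0.381% with the slide term and 1.42% with the replicate block. In the scanner fit with ComBat this share was 0.305%. The member count was thus not set apart from a loss over the whole array. The member count was lower without tumor skin 1 and without tumor 2, fits that left 1 array in a group. In papilloma versus papilloma skin 3 passed, and the count was 0 in each scanner fit except the one with ComBat (5), and 3 to 4 when arrays were left out. The scanner fits without ComBat, which included quantile normalization, a slide term, scaling to the 75th percentile, normexp and the 6 arrays with full spike-in slope, called none of the 55155 probes they tested. The other comparisons called no member under any setting. With the replicate block, Bcl2l1 kept its calls in both comparisons (limma adjusted p of 0.039 and 0.0499 in tumor versus tumor skin), while Bax (0.121) and Bid (0.083) did not. The labels give no animal, litter or day that a replicate number shares, but replicate 1 of every group lay on slide 1, so the number partly follows the slide. The correlation of deviations between samples of the same number ran from -0.957 to 0.376 in the value table, from which the slide effect may have been removed, so it does not settle whether the numbers pair the samples. No difference that passed changed sign under any alternative, and 157 values of differences that had not passed did. The median log2 change of all probes with scaling to the 75th percentile was -0.15 at the tumor stage and -0.41 at the papilloma stage, beside -0.02 and -0.01 in the value table, and at the papilloma stage it was 0.13 with quantile normalization of the scanner signals. The cause of the differences in calls between sources was not tested.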
